A study of Mus musculus with 18 samples.

Results

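Naive CD8+ T cells activated under Asn restriction were compared with cells activated in control medium 4 h after stimulation, the earliest time point of the study. The comparison rests on 6 of 18 libraries, 3 of Asn restriction at 4 h and 3 of control at 4 h, chosen by the medium and time in the library labels. All cells came from the lymph nodes and spleen of wild-type male C57BL/6N mice aged 8 to 12 weeks, were enriched by negative selection and were activated on plates coated with anti-CD3 and anti-CD28, with IL-2 and IL-12 in the medium. The remaining 12 libraries, of the same media at 24 and 72 h, served to estimate the spread between libraries and, at 24 h, for a single comparison of the effects. The restriction medium was RPMI without Asn, with dialyzed serum and added alanine. The general T cell medium of the study had undialyzed serum, and an amino acid-proficient control with alanine is also described. The serum of the control libraries is not stated, so that the lack of Asn and any other difference between the media cannot be told apart. The study calls its libraries experimental replicates of 1 experiment without naming separate mice or cultures, and p-values therefore measure only the spread between these libraries.

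Asparagine is a non-essential amino acid, which cells take up or make from aspartate and glutamine by asparagine synthetase (ASNS). When an amino acid runs short, uncharged tRNA activates the kinase GCN2, phosphorylation of eIF2alpha lowers general protein synthesis, and the transcription factor ATF4 is translated preferentially and induces genes of amino acid synthesis, uptake and tRNA charging. At the same time, a newly stimulated CD8+ T cell passes from immediate early transcription factors to cytokine production, and starts to build the glycolytic, nucleotide and lipid synthesis capacity that it needs for division.

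Between 17242519 and 21153576 counts were assigned to genes in the libraries of Asn restriction, and between 11602396 and 21872456 in control. ERCC spike-ins took 1.42 to 1.61% of counts under Asn restriction and 1.35 to 1.62% in control, and mitochondrial transcripts took 0.844 to 0.860% and 0.771 to 0.862%. The 10 markers of CD8+ T cells summed to between 2914 and 2974 CPM, the usual depth-scaled count unit (on library sizes scaled by TMM, edgeR's trimmed mean method), under Asn restriction and between 3318 and 3398 CPM in control, while Cd4 averaged 0.644 and 0.633 CPM. The 12 myeloid and dendritic markers summed to 32.2 to 34.3 CPM under Asn restriction, against 34.8 to 38.7 CPM in control, and the 12 B cell markers to 60.5 to 65.9 CPM and 52.4 to 57.4 CPM. The stromal and endothelial markers summed to 22.6 to 28.4 CPM and 27.6 to 30.9 CPM, with Cdh5 at 0 counts in all 6 libraries. In bulk RNA, a change in the number of cells of a type and in the RNA per cell cannot be told apart.

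Asn restriction changed a large share of the transcriptome within 4 h. Of 14871 genes tested by edgeR's quasi-likelihood test with Benjamini-Hochberg adjustment (threshold 0.05), 3506 (23.6%) rose and 3277 (22%) fell, so that 45.6% changed. These shares are the background for the counts of the gene lists below. In 8128 genes (54.7%) the 3 libraries of one medium all lay above the 3 of the other. Most changes were modest, with 565 genes higher and 629 lower by at least 2-fold and 94 higher and 112 lower by at least 4-fold. The median log2 fold change of all genes was 0.02. Scaling by total counts without TMM factors shifted this median to -0.09 and the split to 2582 higher and 4268 lower genes. Scaling by ERCC spike-ins, for which it is not stated whether they were added per cell or per amount of RNA, gave a median of -0.11, 942 higher and 2122 lower genes.

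Among genes with at least 10 CPM in one medium, the strongest rise was that of Soat2, the sterol O-acyltransferase that makes cholesteryl esters. It had 14.0, 14.5 and 13.0 CPM under Asn restriction, against 0.293, 0.535 and 0.574 CPM in control (29.1-fold, adjusted p = 6.76e-16). Next came Il23a, the p19 subunit of IL-23, with 25.6, 24.3 and 24.5 CPM against 0.939, 0.981 and 1.2 CPM (23.3-fold, adjusted p = 5.85e-20). The non-coding transcript 2410006H16Rik had 575, 573 and 558 CPM, against 63.3, 66.8 and 56.9 CPM in control, and the antiproliferative gene Btg2 had 706, 714 and 727 CPM, against 94.5, 94.3 and 94.0 CPM. Of the other leading rises, Ddit3, Trib3 and Atf3 are stress regulators, Egr1 is an immediate early gene, and Ramp3 and Plaur encode a receptor-modifying protein and the urokinase receptor. The 30 leading genes were chosen among genes whose groups did not overlap, a condition that 54.7% of all genes met.

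The falls were led by Phlda3, a p53 target that restrains AKT, with 1.78, 2.01 and 0.851 CPM under Asn restriction, against 20.4, 19.4 and 19.8 CPM in control. Idi1, an enzyme of cholesterol synthesis, and Lrp8, a lipoprotein receptor, were also among the 15 strongest falls. The thiamine transporter Slc19a2 (log2 fold change -2.56) and the zinc importer Slc39a10 (-2.22) fell as well. Slc39a10 had 31.1, 30.4 and 29.7 CPM under Asn restriction, against 142, 139.7 and 145 CPM in control.

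**Figure D1:**
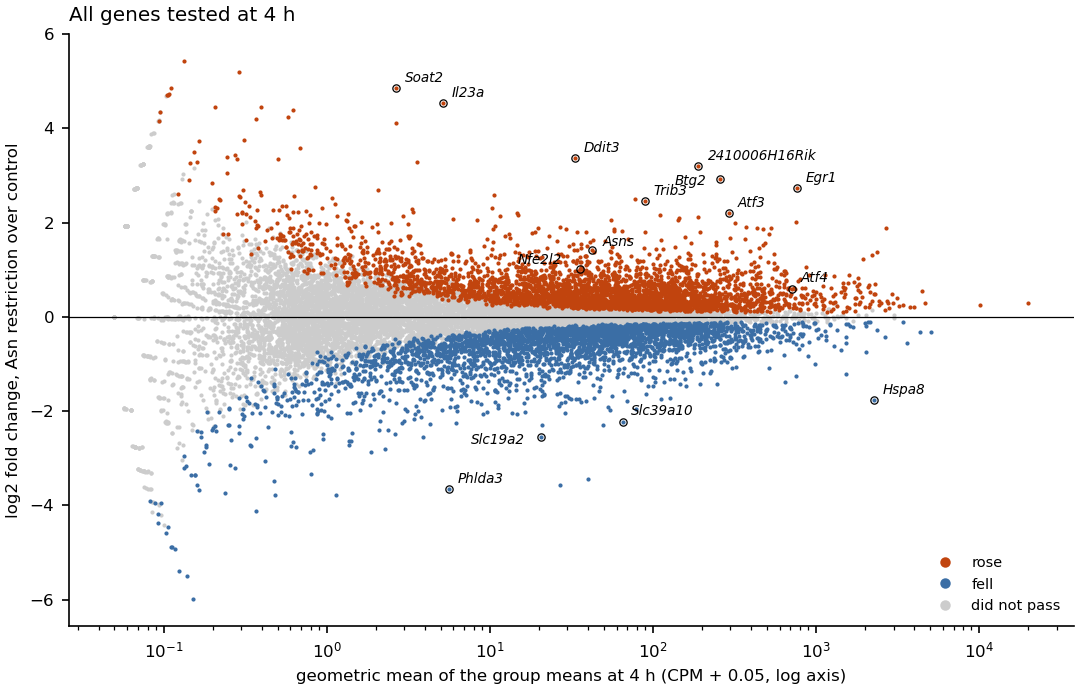
All 14871 genes tested at 4 h, with the log2 fold change of Asn restriction over control against the geometric mean of the group means in CPM on a log axis. Genes that rose are orange, genes that fell are blue and the others are grey; circled genes are named in the text, from Soat2 at 4.86 to Phlda3 at -3.66.

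Genes of the amino acid stress response rose. Atf4 (chr15:80255184-80257541, GRCm38) had 877, 906 and 874 CPM under Asn restriction, against 601, 595 and 558 CPM in control, a 1.51-fold rise (log2 0.60 ± 0.0441, SE, adjusted p = 7.83e-13). This rise passed under every other setting except scaling by ERCC spike-ins, where it was 0.46 with an adjusted p of 0.0689. Ddit3 (chr10:127290774-127296288), which encodes the ATF4 partner CHOP, rose 10.3-fold, with 114, 105 and 106 CPM under Asn restriction, against 9.80, 8.20 and 12.6 CPM in control (adjusted p = 4.95e-22). Trib3, a pseudokinase that feeds back on ATF4 and CHOP, had 207, 224 and 202 CPM, against 37.8, 34.9 and 41.8 CPM. The groups of all these genes were apart.

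Of the 19 genes in the list of ATF4 and CHOP regulators, 14 rose and 3 fell, with a median log2 fold change of 1.19. Further transcription factors of the bZIP family rose: Atf3 by 2.21, Atf5 by 1.29, Cebpg by 1.21 and Cebpb by 1.2 on the log2 scale. So did Chac1, which degrades glutathione (88.8, 94.8 and 83.0 CPM under Asn restriction, against 30.7, 29.2 and 27.1 CPM in control), and the mTORC1 inhibitors Ddit4 (log2 fold change 1.19) and Sesn2 (0.85). The 3 that fell were the eIF2alpha kinases Eif2ak1, Eif2ak3 and Eif2ak4, of which Eif2ak4 encodes GCN2 itself. Eif2ak4 had 28.2, 31.1 and 27.0 CPM under Asn restriction, against 40.8, 36.6 and 40.3 CPM in control.

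**Figure D2:**
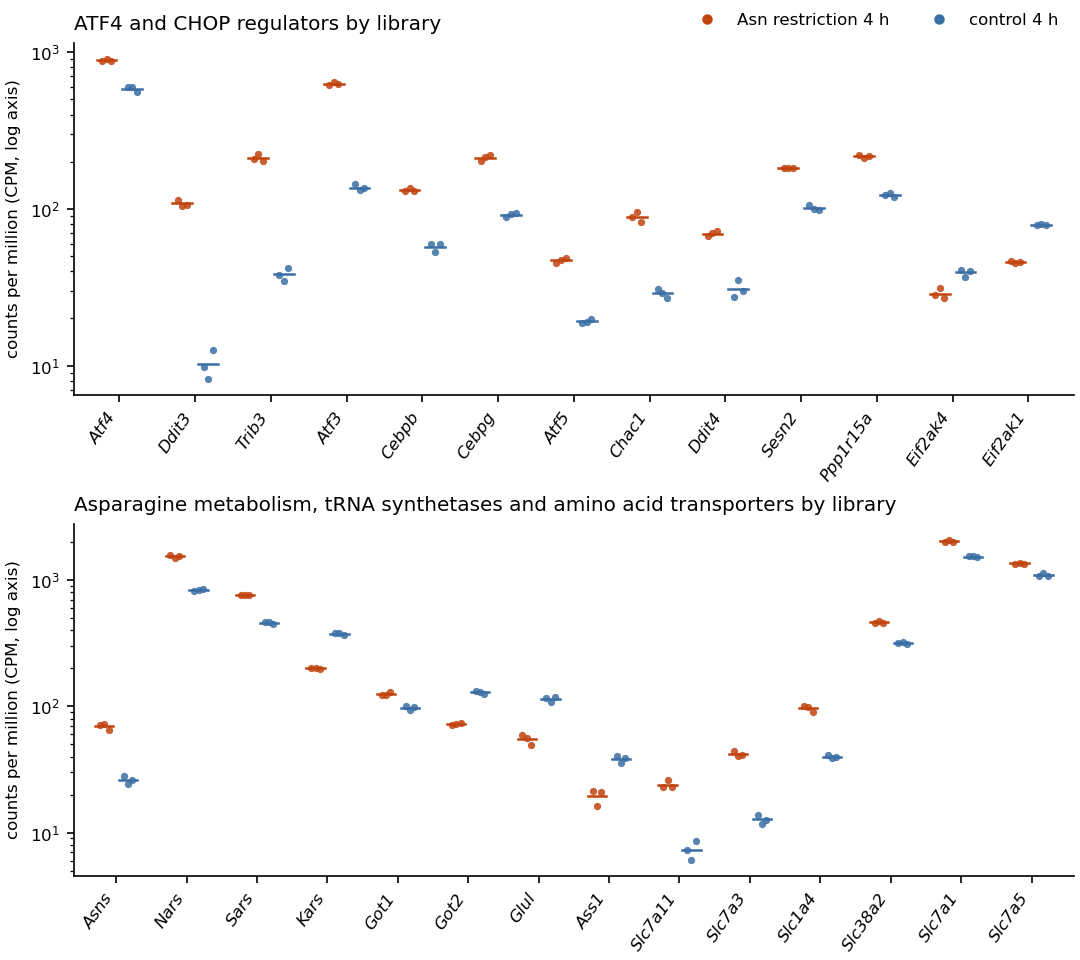
CPM on a log axis in each library at 4 h, Asn restriction in orange and control in blue. The top shows 13 ATF4 and CHOP regulators, the bottom genes of asparagine metabolism, tRNA charging and amino acid transport. Points are libraries and bars are group means. Every gene drawn has separate groups, with Ddit3 furthest apart and Slc7a5 among the closest.

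ATF4 targets rose almost throughout: 45 of the 56 tested (80.4%) were higher and 5 lower, with a median of 0.70 (0.69 without Vldlr, which had no counts in control). With ERCC scaling 27 rose and 2 fell. The 5 lower ones were Tnfrsf10b, Bbc3, Ero1l, Map1lc3b and the barely expressed Cbs. The call of Bbc3 also ended with limma-voom and in 4 of the 6 fits without 1 library, and that of Map1lc3b with ERCC scaling. The rises ranged from Soat2 down to Aldh18a1, the enzyme that opens proline synthesis (log2 fold change 0.19, adjusted p = 3.67e-04), a rise that did not pass without TMM factors or with ERCC scaling. Pycr1, which closes the same pathway, rose by 0.90, the cystathionine lyase gene Cth by 1.07 and the mitochondrial protease gene Lonp1 by 0.98. The list of ATF4 targets shares members with that of the regulators, among them Ddit3, Trib3, Chac1 and Sesn2.

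Promoters of the risen ATF4 targets were read to place the ATF4 response element, TGATGNAA, in the sequences of genes that rose together. A RefSeq promoter (GRCm38.p6, 250 bases before to 50 bases after the start) was at hand for 36 of the 45, and 11 of them (30.6%, exact 95% interval 16.3 to 48.1) held the element on either strand: Asns, Chac1, Herpud1, Jdp2, Nupr1, Pck2, Pycr1, Slc1a4, Slc7a11, Trib3 and Vldlr. Counted by gene in the same way, 4.51% of the 27025 genes in the promoter table held it in at least 1 window, and 3.97% of its 32851 windows held it. On the strand of the gene alone, the shares of genes were 4 of 36 (11.1%) and 2.41%. The list holds known ATF4 targets and was cut to those that rose, and the promoter table includes genes not tested here. The shares are therefore a description and no test. Of the other motifs read, the antioxidant response element had the largest share, 13 of the 36 (36.1%), against 14% of all genes in the promoter table. This share was not particular to ATF4 targets. The element was also held by 10 of 26 textbook NRF2 targets (38.5%) and 7 of 19 immediate early genes (36.8%) with a promoter. A match describes the letters and does not show binding. The 4 windows shown belong to the risen targets that hold the ATF4 element with the largest folds at 10 CPM or more. This minimum passed over Vldlr, Nupr1 and Jdp2. The windows run 5′ to 3′ on the gene's strand, with the ATF4 element in capitals.
Trib3 (chr2:152344011-152344310, minus strand): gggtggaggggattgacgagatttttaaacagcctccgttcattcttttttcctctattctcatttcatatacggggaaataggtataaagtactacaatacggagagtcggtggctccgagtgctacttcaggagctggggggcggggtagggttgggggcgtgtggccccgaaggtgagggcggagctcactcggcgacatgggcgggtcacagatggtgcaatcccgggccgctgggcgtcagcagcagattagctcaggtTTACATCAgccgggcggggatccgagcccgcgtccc
Slc7a11 (chr3:50443564-50443863, minus strand): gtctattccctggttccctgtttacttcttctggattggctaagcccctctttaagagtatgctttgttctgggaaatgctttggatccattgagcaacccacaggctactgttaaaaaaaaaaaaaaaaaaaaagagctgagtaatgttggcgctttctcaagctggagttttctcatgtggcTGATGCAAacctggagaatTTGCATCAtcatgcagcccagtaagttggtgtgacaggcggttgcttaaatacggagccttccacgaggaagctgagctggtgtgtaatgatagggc
Chac1 (chr2:119350992-119351291, plus strand): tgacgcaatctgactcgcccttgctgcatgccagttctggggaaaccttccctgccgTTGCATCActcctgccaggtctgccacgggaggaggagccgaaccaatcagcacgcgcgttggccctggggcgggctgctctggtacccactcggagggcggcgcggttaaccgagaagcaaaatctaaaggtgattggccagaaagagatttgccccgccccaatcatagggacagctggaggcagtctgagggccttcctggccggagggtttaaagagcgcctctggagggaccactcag
Asns (chr6:7693160-7693459, minus strand): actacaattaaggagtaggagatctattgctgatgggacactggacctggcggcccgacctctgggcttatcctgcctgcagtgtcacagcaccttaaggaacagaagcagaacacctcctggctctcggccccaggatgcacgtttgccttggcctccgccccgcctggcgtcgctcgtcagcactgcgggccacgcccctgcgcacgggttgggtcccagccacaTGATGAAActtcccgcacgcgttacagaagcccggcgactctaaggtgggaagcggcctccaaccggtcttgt
In Trib3 the element lies 15 bases after the start on the opposite strand, and in Chac1 193 bases before it, also on the opposite strand. Slc7a11 has it 66 bases before the start on the gene's strand and again 47 bases before it on the opposite strand, and Asns has it 23 bases before the start on the gene's strand.

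Asns (chr6:7675169-7693254), the enzyme that makes asparagine, rose 2.66-fold. It had 71.5, 72.7 and 64.8 CPM under Asn restriction, against 27.9, 24.2 and 26.1 CPM in control (log2 1.41 ± 0.0645, SE, adjusted p = 8.72e-18), with no overlap. Other genes of asparagine and aspartate metabolism went down: 2 of 14 tested rose and 9 fell, with a median of -0.34. The second riser was Got1, the cytosolic aspartate aminotransferase (log2 fold change 0.36, not past the threshold with ERCC scaling), while its mitochondrial counterpart Got2 fell by 0.83. Glutamine synthetase, Glul, had 59.0, 56.5 and 49.5 CPM under Asn restriction, against 116, 109 and 119.7 CPM in control. Ass1, which joins aspartate to citrulline, fell by 0.98, and the mitochondrial aspartate carrier gene Slc25a13 by 1.07.

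The gene that charges tRNA with asparagine in the cytosol had the largest fold of the cytosolic synthetase list. Nars had 1571, 1507 and 1558 CPM under Asn restriction, against 814, 832 and 852 CPM in control (log2 0.89, adjusted p = 9.98e-18). Of 23 cytosolic synthetase genes and cofactors, 13 rose and 5 fell (median 0.18), with Sars at 0.73, Lars at 0.63 and Aars at 0.50. With ERCC scaling 2 rose and 3 fell, and the calls of Lars and Aars ended. Kars, for lysine, moved the other way, with 198 to 201 CPM under Asn restriction, against 368 to 382 CPM in control, and Farsa fell by 0.52. Wars did not differ detectably (log2 fold change -0.04, adjusted p = 0.599), and without TMM factors it was lower by 0.16 (adjusted p = 0.0147). Of 17 mitochondrial synthetase genes, 3 rose (17.65%) and 4 fell (23.53%), against 23.6% and 22% of all genes. Ears2, for glutamate, was at 1.12.

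Plasma membrane carriers of amino acids rose to very different degrees. Slc7a11, the cystine importer, had 23.2, 26.0 and 23.0 CPM under Asn restriction, against 7.27, 6.06 and 8.62 CPM in control (3.22-fold). Slc7a3, for cationic amino acids, rose 3.28-fold, and Slc1a4, for neutral ones including serine, rose 2.43-fold. The abundant carriers moved less: Slc38a2 by 0.53, Slc1a5 by 0.42, Slc7a1 by 0.40, Slc7a5 by 0.31 and its partner chain Slc3a2 by 0.28 on the log2 scale. All 5 of these smaller rises had separate groups and none passed with ERCC scaling. Across the 26 transporters tested, 11 rose and 5 fell, with 4 and 5 under ERCC scaling, and the median of 0.10 became -0.02 without TMM factors. The mitochondrial glutamate carrier gene Slc25a22 fell by 1.16.

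Serine synthesis and folate genes divided. Of 21 tested, 10 rose and 9 fell. Psph (0.68), Mthfd2 (0.52), Shmt2 (0.39), Phgdh (0.36) and Psat1 (0.26), which make serine or carry its carbon into mitochondrial folate, rose on the log2 scale, although only Psph passed with ERCC scaling. Mthfd1, the cytosolic folate enzyme, had 175, 181 and 174 CPM under Asn restriction, against 329.5, 314 and 321 CPM in control, and Fpgs, which retains folates in the cell, had 12.8, 13.8 and 17.3 CPM, against 47.5, 47.4 and 40.6 CPM.

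NRF2 is a transcription factor that KEAP1 marks for degradation until oxidants or electrophiles modify KEAP1, and it then pairs with small MAF proteins on antioxidant genes. Its gene Nfe2l2 (chr2:75675513-75704641) had 49.7, 51.1 and 53.1 CPM under Asn restriction, against 26.5, 24.0 and 24.9 CPM in control, a 2.04-fold rise (adjusted p = 8.07e-12). Keap1 fell by 0.63 on the log2 scale. Bach1, the repressor that competes with NRF2 for the same sites, rose more than Nfe2l2 did, to 367, 359 and 364 CPM under Asn restriction, against 106, 101 and 106 CPM in control (3.48-fold). Of the small MAF genes, Maff rose by 1.16 and Mafg fell by 0.55. The related factor Nfe2l1 rose by 0.53, a call that ended with ERCC scaling.

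Textbook NRF2 targets were mostly lower. Of 31 tested, 3 rose and 17 fell, with a median of -0.50. The 3 that rose were Srxn1, the sulfiredoxin that reactivates peroxiredoxins, Slc7a11 and Sqstm1. Srxn1 had 37.8, 33.4 and 35.3 CPM under Asn restriction, against 9.03, 10.3 and 11.2 CPM in control. Slc7a11 is listed among the ATF4 targets too, as is Sqstm1, whose rise of 0.38 did not pass with ERCC scaling. Glutathione reductase, Gsr, had 24.3, 25.2 and 23.9 CPM, against 59.7, 58.2 and 60.2 CPM, and thioredoxin reductase, Txnrd1, had 132, 128 and 141 CPM, against 289, 318 and 314 CPM. Both subunits of the enzyme that opens glutathione synthesis were lower, Gclm by 0.96 and Gclc by 0.25, and the call of Gclc ended with ERCC scaling. Nqo1 was near the detection limit in both media (0.215, 0.366 and 0.72 CPM against 0.235, 0.268 and 0.192 CPM). Hmox1 had 8.98, 6.89 and 9.95 CPM, against 8.74, 4.73 and 6.65 CPM, and the groups overlapped (adjusted p = 0.111), although it passed without replicate 2 of Asn restriction (0.46, adjusted p = 0.032) or replicate 1 of control (0.55, adjusted p = 0.0128).

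Enzymes that remove peroxide and superoxide were mostly lower too. In the list of thioredoxin, peroxiredoxin and superoxide enzymes, 16 of 21 fell and Srxn1 alone rose (median -0.52). This list shares members with that of the NRF2 targets, among them Srxn1, Txnrd1 and Prdx1, so the counts overlap. Gpx1 had 13.6, 15.5 and 12.5 CPM under Asn restriction, against 50.9, 50.1 and 52.5 CPM in control. Prdx2 fell by 1.54 and the mitochondrial dismutase gene Sod2 by 1.18 on the log2 scale. In contrast Txnip, which binds thioredoxin and restrains glucose uptake, had 86.1, 92.9 and 81.6 CPM under Asn restriction, against 42.6, 37.2 and 40.1 CPM in control (2.16-fold, adjusted p = 2.62e-15).

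Cholesterol synthesis showed the lowest median of the gene lists of 10 or more tested members. Of 27 sterol genes and SREBP2 targets tested, none rose and 25 fell, with a median of -1.29. Sqle (chr15:59315077-59331192), the squalene epoxidase, had 25.8, 30.5 and 27.0 CPM under Asn restriction, against 108, 114 and 104 CPM in control (log2 -1.97 ± 0.0608, SE, adjusted p = 5.21e-22). Hmgcs1, the HMG-CoA synthase of the same pathway, had 52.7, 50.5 and 52.4 CPM, against 162, 156 and 162 CPM. The isomerase gene Idi1 had 12.9, 14.0 and 15.8 CPM, against 57.5, 56.9 and 59.8 CPM. In each of these genes the 3 libraries of Asn restriction lay well below the 3 of control. The squalene synthase gene Fdft1 fell by 1.82. Insig1, the sterol-sensing brake on SREBP processing and itself a target, fell by 1.32. Of the fatty acid genes, 8 of 14 fell and 1 rose. Fasn had 685, 716 and 689 CPM, against 1411, 1388 and 1368 CPM, and Acly and Acaca fell by 0.68 and 0.62, while the elongase gene Elovl5 rose by 1.0.

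Glycolytic genes fell without exception among those that changed, 19 of 24 tested, with a median of -0.68 (-0.65 without Aldoc, which had no counts in one medium). Lactate dehydrogenase A, Ldha, had 474, 493 and 497 CPM under Asn restriction, against 1169, 1173 and 1174 CPM in control. Eno1 had 58.3, 65.9 and 60.6 CPM, against 219, 200.5 and 195 CPM. Tpi1 fell by 1.68, Pfkl by 1.57, Pkm by 1.37 and Hk2 by 0.85 on the log2 scale. The glucose transporter Slc2a1 did not differ detectably, with 103, 109 and 114 CPM under Asn restriction, against 108, 114 and 101 CPM in control, nor did the regulator Pfkfb3. Reads of some of these genes, among them Eno1, Ldha and Tpi1, may be shared with processed pseudogenes, and how such reads were divided by the counting was not checked.

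Pathways that branch from glycolysis were lower as well. In the pentose phosphate pathway 9 of 11 genes fell and 2 rose (median -0.59), with Pgd at -1.12, Tkt at -0.95 and G6pdx at -0.75. Pgd, Tkt and G6pdx are counted among the NRF2 targets as well. In purine synthesis 10 of 13 fell and 1 rose, with Impdh1 at -0.90, Pfas at -0.88 and Gart at -0.85. In pyrimidine and deoxynucleotide synthesis 13 of 20 fell and 2 rose (median -0.60). Cad, the enzyme that opens pyrimidine synthesis from glutamine and aspartate, had 354, 365 and 342 CPM under Asn restriction, against 759, 755 and 722 CPM in control, and Dhodh fell by 1.16. Umps and Ctps fell by 0.25 and 0.31, and neither passed with ERCC scaling. In the TCA cycle 14 of 25 fell and 2 rose, with Idh3a at -0.64 and citrate synthase, Cs, at -0.55. Among nuclear genes of the respiratory chain 36 of 70 fell and 9 rose (median -0.17), and 46 fell and 2 rose without TMM factors. Uqcr11, Atp5k, Ndufa4 and Cox5a fell, by 1.17, 1.13, 0.65 and 0.53. Atp5b was nearly equal (log2 fold change 0.00), and without TMM factors it was lower by 0.12 (adjusted p = 0.0138).

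**Figure D3:**
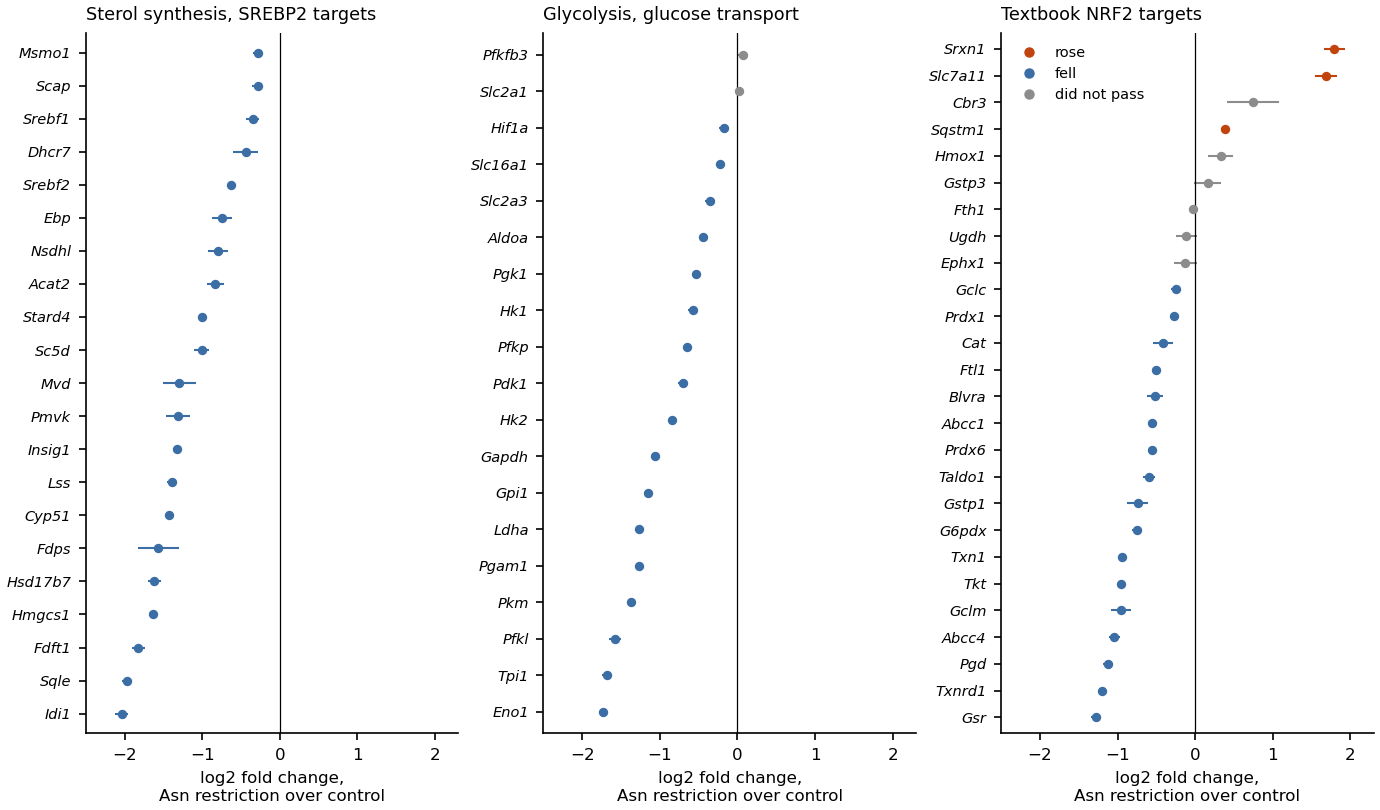
Log2 fold change of Asn restriction over control at 4 h (points, with bars of 1 SE) for the sterol, glycolysis and NRF2 target genes with at least 3 CPM in one medium, with 21, 19 and 26 genes drawn. The sterol genes drawn, which are not all of the list, reach -2.04 at Idi1, glycolytic genes reach -1.74 at Eno1, and NRF2 targets run from Srxn1 at 1.79 to Gsr at -1.28.

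Chaperones were mostly lower, in the cytosol and in the ER. Hspa8 (chr9:40800984-40810087), the constitutive HSC70 chaperone, is abundant in these cells and had 1253, 1215 and 1252 CPM under Asn restriction, against 4333, 4145 and 4187 CPM in control (log2 -1.77 ± 0.0467, SE, adjusted p = 1.14e-23). It has processed pseudogenes, and its reads may be shared with them. Of 17 heat shock chaperones 11 fell, with Hsph1 at -1.15 and Hspd1 at -0.67, and 2 rose, Hspa9 and Chordc1. Dnajb1, a sensitive target of heat shock factor HSF1, was at 0.09 (adjusted p = 0.220). Of 32 ER chaperone and degradation genes 18 fell and 6 rose. Pdia3 (-1.12) and Hsp90b1 (-0.96) fell, and Hspa5, which encodes BiP, fell by only 0.18, with 1506, 1509 and 1527 CPM under Asn restriction, against 1729, 1661 and 1763 CPM in control. Xbp1 fell by 0.33. The calls of Hspa5 and Xbp1 ended with ERCC scaling. Herpud1, also an ATF4 target, rose by 0.90.

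Transcripts known as targets of nonsense-mediated decay rose as a group. This surveillance pathway needs translation to recognize its targets, which include the hosts of small nucleolar RNAs, transcripts with short or no conserved reading frames. Of 22 targets and pathway genes tested, 17 rose and 4 fell (median 0.64), and with ERCC scaling 10 rose and 3 fell. Gas5 (chr1:161034422-161038539) had 974, 922 and 981 CPM under Asn restriction, against 276, 281 and 288 CPM in control (3.40-fold, adjusted p = 6.65e-24). Snhg1 had 653, 624 and 630.1 CPM, against 159.9, 154 and 167 CPM. Zfas1 rose 4.34-fold and Snhg12 3.47-fold. The exceptions were Snhg20, Snhg4, Snhg3 and Upf1, the helicase of the pathway itself. Host genes of this kind contain small nucleolar RNA genes and can overlap neighbours, and whether the counting used strand is not stated.

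Components of the translation apparatus divided by class. Of 75 cytosolic ribosomal protein genes 41 rose and 9 fell (median 0.16), but the split was 26 and 20 without TMM factors and 3 and 6 with ERCC scaling. Rpl3 had 2025, 2002 and 2004 CPM under Asn restriction, against 1271, 1180.0 and 1233 CPM in control. Rpl22l1 rose by 1.07 and Rps3 by 0.40, the second not past the threshold with ERCC scaling, whereas Rpl37a fell by 0.83 and the p53 target Rps27l by 1.35. Many ribosomal protein genes have near-identical pseudogenes, which makes their counts uncertain. Of 66 ribosome biogenesis factors 17 rose (25.76%) and 30 fell (45.45%), against 23.6% and 22% of all genes. Ubtf, the RNA polymerase I factor, had 107, 102 and 99.1 CPM, against 233, 245 and 218 CPM. Nop10 (-1.27), Lyar (-0.89) and Fbl (-0.46) fell and Nop56 rose by 0.60, which ended with ERCC scaling. Of 38 initiation factors 11 rose (28.95%) and 15 fell (39.47%). Eif2s2, the beta subunit of eIF2, rose by 0.94, and Eif5a and Eif4g1 fell by 0.74 and 0.63. Among 23 mTORC1 regulators 5 rose (21.7%, against 23.6% of all genes) and 9 fell (39.1%, against 22%). They included Rheb, the direct activator of mTORC1, at 0.73 and Fnip2 at -1.17.

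Immediate early genes were higher at 4 h in cells under Asn restriction. These genes answer T cell receptor signals within minutes and usually decline soon after. Of 23 tested, 18 rose and 3 fell, with a median of 1.08. Egr1 had 1979, 2007 and 1970.0 CPM under Asn restriction, against 294, 306 and 300.3 CPM in control (6.62-fold, adjusted p = 1.04e-25). Nr4a1, encoding the nuclear receptor NUR77 and a common reporter of receptor signal strength, had 5111, 5396 and 5055 CPM, against 1397, 1425 and 1377 CPM. Fosl2, an AP-1 subunit, had 1495, 1524 and 1520.0 CPM, against 372, 374 and 376 CPM. The change was uneven within the family. Egr3 and Junb rose by 0.80 and 0.76 on the log2 scale and Egr2 by 0.56, which did not pass with ERCC scaling (0.42, adjusted p = 0.114), while Ier3, Srf and Fosl1 fell. Of 14 genes of MAPK feedback 11 rose (6 without TMM factors) and 1, Dusp7, fell. Dusp2 rose by 0.89, whereas Dusp5 and Dusp6 (0.20 and 0.22) passed neither without TMM factors nor with ERCC scaling.

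NF-kB genes also tended to be higher, and surface activation markers less clearly so. Of 23 NF-kB subunits, inhibitors and targets 17 rose and 4 fell, with a median of 0.49. Cd83 rose by 1.91, Icam1 by 1.52 and the atypical inhibitor gene Nfkbiz by 1.34. Nfkbia, encoding IkBalpha, rose by 0.43, which ended with ERCC scaling. The early activation antigen Cd69 had 3899, 3623 and 3871 CPM under Asn restriction, against 1438, 1430.0 and 1542 CPM in control. Of 19 activation markers 9 rose and 3 fell. Their median of 0.13 changed sign without TMM factors or with ERCC scaling. Il2ra (0.31, ended with ERCC scaling) was higher, and Tnfrsf9, encoding 4-1BB, was lower, with 928, 968 and 941 CPM, against 1277, 1217 and 1228 CPM.

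Genes of the antigen receptor went in both directions. Cd8a (chr6:71373427-71379173), the coreceptor chain that defines these cells, had 93.5, 99.3 and 93.4 CPM under Asn restriction, against 269, 256 and 269 CPM in control, and Cd8b1 fell by 0.84. In all, 8 of the 10 CD8+ T cell markers fell. Lcp2, the adaptor SLP-76, rose by 0.87. Beside the lower CD8 markers, the sum of CD4 and regulatory T cell markers was higher (82.1 to 94.0 CPM under Asn restriction, against 48.5 to 55.9 CPM in control), a sum to which Ikzf2 alone gave 74.7 and 37.9 CPM. Foxp3 averaged 1.5 and 1.91 CPM. The markers of NK and gamma-delta T cells summed to 15.7 to 16.7 CPM and 8.74 to 12.7 CPM. The part of other cells in these results was not tested.

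Cytokine genes did not move as a block. Of 27 tested, 12 rose and 4 fell (median 0.13). Il2 had 126, 121 and 128 CPM under Asn restriction, against 59.7, 57.0 and 62.4 CPM in control (2.08-fold, adjusted p = 8.49e-11). Ifng had 1172, 1159 and 1200.0 CPM, against 1216, 1165 and 1207 CPM, and the groups overlapped (log2 fold change -0.02, adjusted p = 0.702). Without TMM factors Ifng was lower by 0.14 (adjusted p = 0.00521). Lif had 474, 467 and 479 CPM, against 229, 240.2 and 239 CPM, and Il17a and Csf2 rose 3.38-fold and 2.44-fold. Tnf rose by 0.27, a call that ended with ERCC scaling, and Il3 fell by 1.5. Of 21 chemokine and chemokine receptor genes 10 rose and 6 fell (median 0.46). Among those that fell, Xcl1 had 1011, 1013 and 991 CPM, against 2387, 2259 and 2361 CPM, Ccl3 fell by 0.95 and Ccl4 by 0.37, while Ccl5 (-0.08) did not pass.

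Cytotoxic genes and effector transcription factors each moved in both directions. Of 15 granzyme and effector genes tested 4 rose (26.67%) and 6 fell (40%), against 23.6% and 22% of all genes (list median -0.0051). The receptor genes Klrc1 and Klrk1 were at 0.78 and 0.74 and the granule gene Nkg7 at -0.55. Gzmb, granzyme B, had 215, 215 and 214 CPM under Asn restriction, against 262, 288 and 277 CPM in control. Prf1, perforin, rose by 0.23, but not past the threshold without TMM factors or with ERCC scaling. Of 13 effector transcription factors tested 6 rose and 5 fell (median 0.29). Tbx21, encoding T-bet, had 385, 383 and 376 CPM, against 157, 164 and 154 CPM, and Bhlhe40 rose 3.70-fold, while Eomes fell by 0.47. Of 32 cytokine receptor and feedback genes 20 rose and 7 fell (median 0.40). Receptor chains for IL-4 (Il4ra, 1.14), IL-18 (Il18r1, 1.15), interferon gamma (Ifngr1, 0.99) and IL-12 (Il12rb2, 0.77) were among those that rose.

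**Figure D4:**
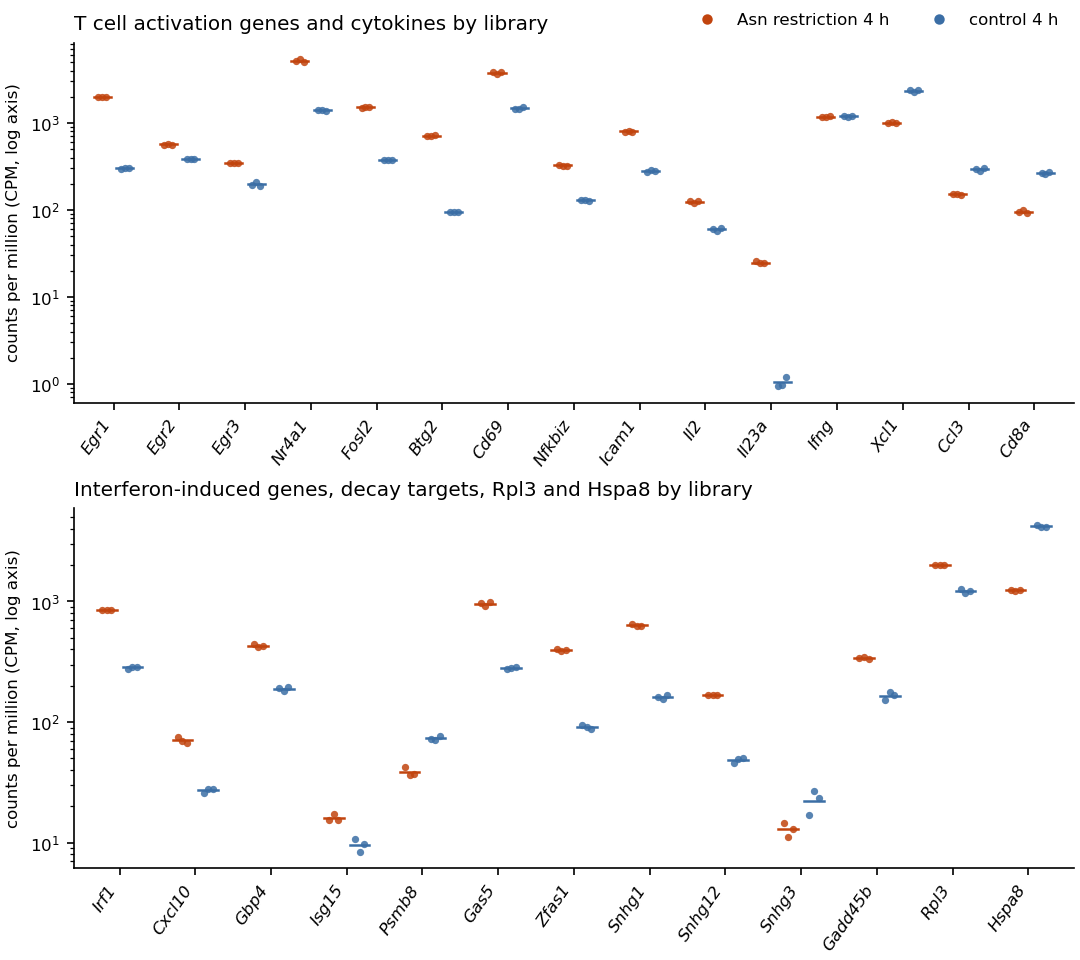
CPM on a log axis of T cell activation genes and cytokines (top) and of interferon-induced genes, decay targets, Rpl3 and Hspa8 (bottom) in each library at 4 h, Asn restriction in orange and control in blue; points are libraries and bars are group means. Egr1 has means of 1985 CPM under Asn restriction, against 299.9 CPM in control, Ifng overlaps, and Xcl1, Ccl3, Cd8a, Psmb8, Snhg3 and Hspa8 are lower under Asn restriction.

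Interferon-induced genes were higher although Ifng was not. Of 29 genes induced by interferon gamma 22 rose and 5 fell, with a median of 0.70. Irf1 (chr11:53770014-53778374), the transcription factor of this response, had 847, 844 and 845 CPM under Asn restriction, against 275, 288 and 287 CPM in control (2.98-fold, adjusted p = 1.66e-21). The GTPase gene Gbp4 had 439.7, 416 and 429 CPM, against 190.4, 182 and 194 CPM. Cxcl10 rose by 1.38 and the peptide transporter gene Tap1 by 1.07 on the log2 scale. The 5 lower genes, Psmb8, Tapbp, Tap2, H2-K1 and H2-D1, all serve antigen presentation by MHC class I. Of 37 type I interferon stimulated genes 17 rose and 2 fell, with Isg15 at 0.73. Ifit1 (0.49) did not pass without TMM factors, with ERCC scaling or in 4 of the 6 fits without 1 library. Gbp and Ifit genes have close paralogs, and reads that fit several copies make their counts uncertain.

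Cell cycle genes showed lower replication factors and mixed regulators. Of 42 DNA replication genes 24 fell and 3 rose (median -0.39), with Pold1 at -1.21, Mcm6 at -0.86 and Mcm2 at -0.81. Pcna did not pass (0.09, adjusted p = 0.113). Cdk4 had 139, 143 and 145 CPM under Asn restriction, against 291, 279.7 and 280.0 CPM in control. Cdk6 fell by 0.75 and Ccnd2 by 0.43, and the inhibitor genes Cdkn1a and Cdkn1b rose by 0.87 and 0.86. Myc, the driver of growth in activated T cells, had 2284, 2287 and 2261 CPM, against 1964, 1971 and 1952 CPM. Its small rise (log2 0.22, adjusted p = 8.97e-06) ended with ERCC scaling (0.08, adjusted p = 0.836). Its antagonists went opposite ways, Mxd1 at 1.49 and Mnt at -0.99.

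Among 26 p53 targets 10 rose and 11 fell. Besides Phlda3, Zmat3 (-1.82), Ccng1 (-1.47) and Bax (-1.26) fell strongly, whereas Btg2, Fas (1.05) and Cdkn1a rose. In the pro-survival BCL2 family 5 of 12 rose and none fell, led by Bcl2 itself with 586, 559 and 582 CPM under Asn restriction, against 288, 296 and 297 CPM in control. Of 17 BH3-only and effector apoptosis genes 4 rose (23.53%) and 7 fell (41.18%), against 23.6% and 22% of all genes. Bcl2l11, which encodes BIM, was at 0.75. Genes of quiescence tended upward, 9 of 13, with Tsc22d3 at 1.41 and the homing regulator Klf2 at 0.69, while Slfn2, which preserves quiescence in T cells, fell by 0.70. Naive and memory genes were divided, with 14 of 30 higher and 8 lower. Id3 rose by 1.19 and Sox4 fell by 2.06, and Tcf7 and Lef1, which define the naive state, did not pass (adjusted p = 0.142 and 0.594). In the edgeR fit to the 6 libraries of 4 h alone, Tcf7 was just past the threshold (0.12, adjusted p = 0.0493).

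**Figure D5:**
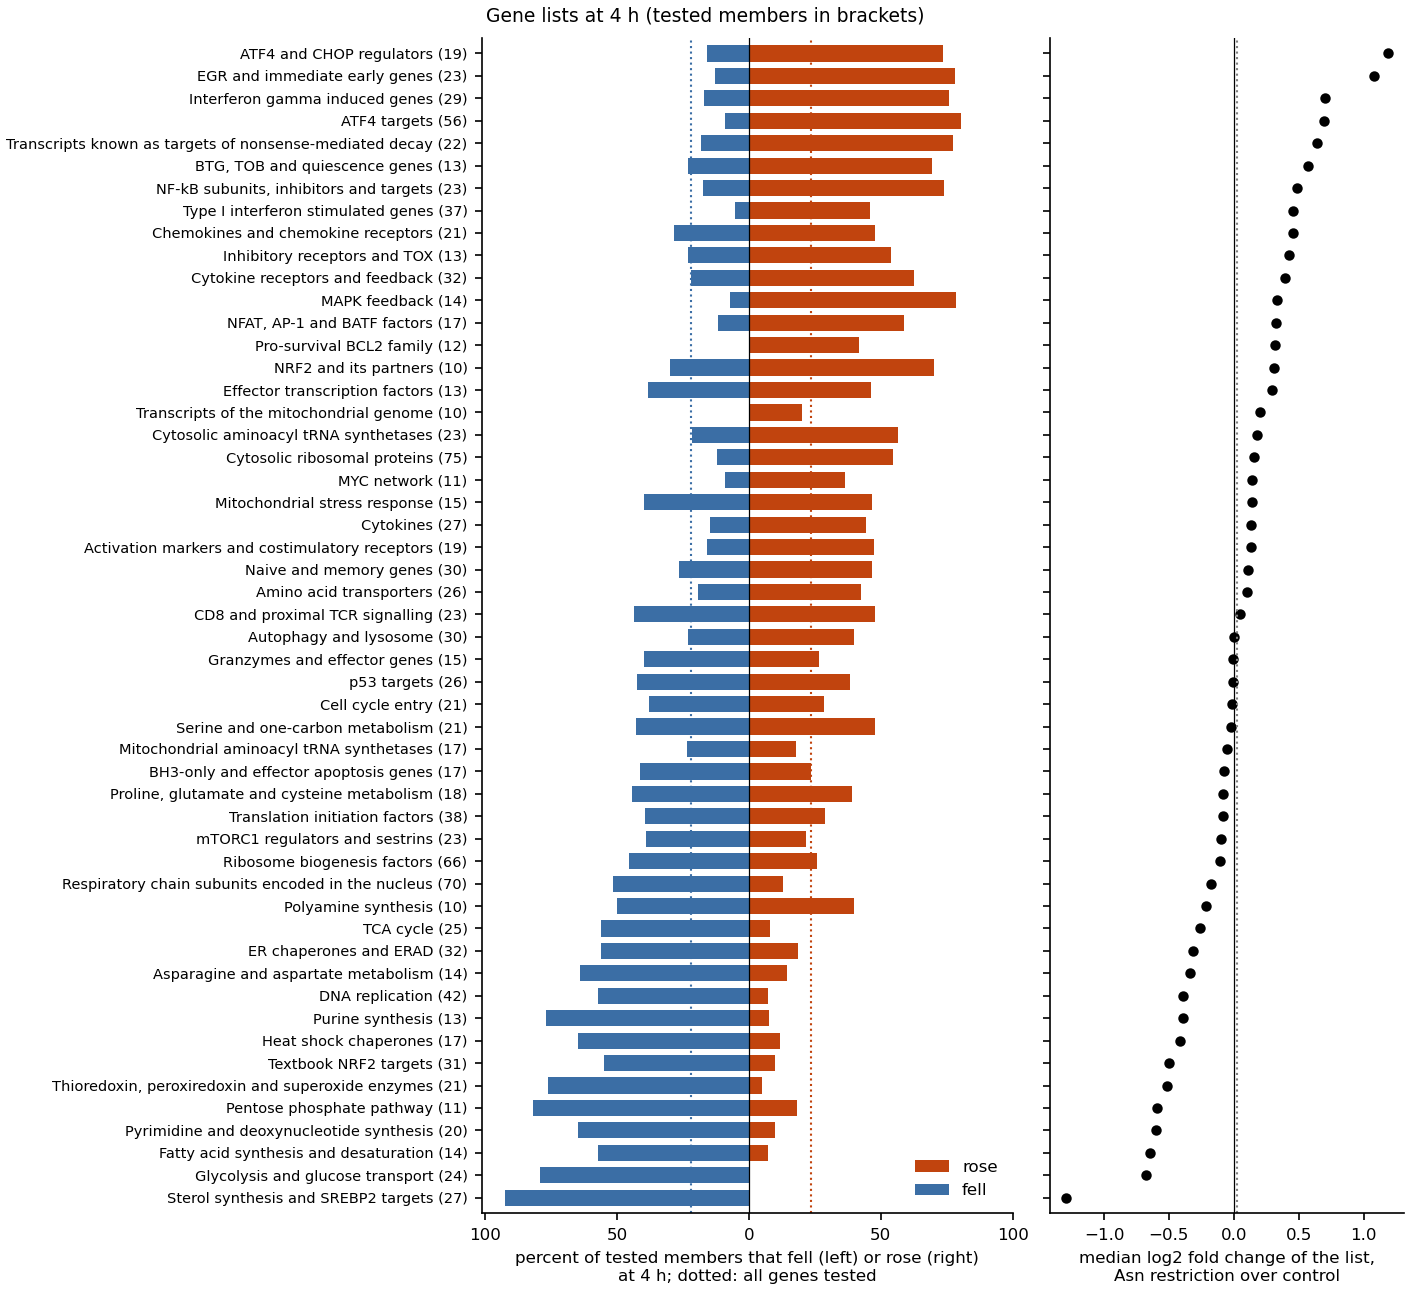
Gene lists with at least 10 tested members at 4 h: percent of members that rose (orange, right) or fell (blue, left), and the median log2 fold change of Asn restriction over control. Dotted lines mark all genes tested (23.6% rose, 22% fell, median 0.02); medians run from 1.19 for ATF4 and CHOP regulators to -1.29 for sterol genes.

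The effect at 4 h was set against that at 24 h in the same fit. It differed in 5396 of the 14871 genes (36.3%). At 4 h Il2 averaged 124.7 CPM with Asn restricted, against 59.7 CPM in control, but at 24 h 17.0 CPM against 49.9 CPM (log2 fold change 1.06 at 4 h and -1.54 at 24 h, adjusted p of the difference = 3.92e-15). Ifng averaged 1177 and 1196 CPM at 4 h and 590.3 and 249.8 CPM at 24 h (-0.02 and 1.24, adjusted p of the difference = 1.15e-16). Asns, Ddit3, Chac1 and Atf4 had larger fold rises at 4 h than at 24 h, the difference for Asns being 0.71 on the log2 scale (adjusted p = 7.29e-08). The level of Asns itself did not decline. With Asn restricted it averaged 69.7 CPM at 4 h and 105 CPM at 24 h, while its control means were 26.1 and 64.6 CPM. For Ddit3, Chac1 and Atf4 the mean of the restricted cells was lower at 24 h than at 4 h. The rise of Nfe2l2 was 1.03 at 4 h and 1.0 at 24 h, a difference of 0.03 ± 0.116 (SE, adjusted p = 0.889).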

How the data were processed

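Total RNA of CD8+ T cells was sequenced in bulk. The submitters' processing notes name Trim Galore 0.60, STAR 2.7, RSEM 1.31 and the builds hg19 and mm10, with no roles, and the strand setting is not given in the sources used here. The deposited table holds whole-number counts per gene for each library, which were analysed here, and normalized counts, deposited by the authors as signal values scaled by size factors, from which only these factors were recovered for an alternative scaling. Columns with the authors' comparisons (log2 fold changes and adjusted p-values) and group means were not used. Of 18585 rows, 63 were ERCC spike-ins and entered neither library sizes nor tests. For positions, 18513 of the 18522 gene IDs were found in GENCODE M21 (GRCm38) when versions were ignored.

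Counts were analysed in R 4.3.3 with edgeR 4.0.16: filterByExpr, TMM scaling and a quasi-likelihood fit to all 18 libraries with 6 group means and 12 residual degrees of freedom, since libraries of all times share an estimate of the spread. Benjamini-Hochberg adjustment ran over 14871 genes with a threshold of 0.05. SE was derived from the F statistic of each test (fold change on the log2 scale over the root of F). At this depth counting error limits mainly weakly expressed genes. No 2 libraries were duplicates. The fit was run on simulated data in which 200 genes were changed, in both directions. Of the changed genes 38% were called at 1.25-fold, 50% at 1.5-fold, 76% at 2-fold and 90% at 4-fold, and 1.55% of calls were false. Genes that did not pass may still have changed. Far fewer genes changed there than in the data, so the simulation could not test the scaling. With fewer changed genes the adjustment is also stricter, so that its rates of calls and of false calls need not hold for the data. Alternatives used DESeq2 1.42.0, limma 3.58.1 (voom), other scalings, other filters, a replicate block and leaving out each library.

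The gene lists (54, and 7 of cell types, with 1223 genes of which 1190 were tested) and their members were chosen with earlier results of these data known, and partly follow lists of an earlier analysis. Genes were named as key members or as up to 4 further changed members of a list with at least 10 CPM in one medium. The 15 strongest rises and 15 strongest falls at that level were named too, among changed genes without overlap between the media. Genes named outside this rule, chosen after their values were seen, are the eIF2alpha kinases, Ero1l, Cbs, the promoter matches Jdp2, Nupr1 and Pck2, Hspa9, Chordc1, Snhg20, Snhg4, Snhg3, Upf1, Ier3, Srf, Fosl1, the 5 lower genes of antigen presentation, Cd4, Ccl5, Foxp3, Cdh5, Ikzf2 and Aldoc. Some members of the lists are counted but not reported here by name. Figures were drawn with matplotlib 3.10.9 in Python 3.11.15.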

Additional observations from a re-analysis of the deposited data

Results flagged for a closer look

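Several effects of Asn restriction differed between 4 h and 24 h by a contrast of the same fit, which differed in 5396 genes. Each difference is the log2 fold change at 4 h minus that at 24 h. It was 2.60 for Il2 (edgeR, adjusted p = 3.92e-15), which rose at 4 h and fell at 24 h, and -1.26 for Ifng (adjusted p = 1.15e-16), which rose at 24 h and did not pass at 4 h. For the stress genes it was 0.71 for Asns, 0.70 for Chac1, 0.57 for Ddit3 and 0.39 for Atf4 (adjusted p = 8.87e-06). It was 0.37 for Myc (0.22 at 4 h and -0.16 at 24 h, adjusted p = 7.12e-07), 0.20 for Egr2 and -0.46 for Txnip, whose rise was larger at 24 h. In the same panel of 12 genes the difference did not pass for Trib3 (0.28, adjusted p = 0.0875), Sesn2 (0.21, adjusted p = 0.0715) and Nfe2l2 (adjusted p = 0.889).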

How the results depend on the processing

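The counts of 3506 higher and 3277 lower genes stayed within 1.5 times under DESeq2 size factors, the authors' size factors, DESeq2, limma-voom, both filters, the fit to the 6 libraries of 4 h, total counts alone and an adjusted p under 0.01. A replicate block within each time point gave 3335 and 3125 genes, although correlations of same-numbered libraries (-0.04, 0.01 and 0.00) did not pair them. Leaving out 1 library gave 3145 to 3228 higher and 2963 to 3069 lower genes. With ERCC totals as library sizes the counts were 942 and 2122, and 2774 in place of 5396 genes differed between 4 h and 24 h. A minimum of 1.5-fold left 1473 and 1466. Among 6584 values of 412 named genes under the alternatives, 6367 kept their direction and call, 198 lost the call (97 with ERCC totals and 19 without TMM factors), 17 gained one and 2 changed sign: Atp5b at -0.12 without TMM factors and Mthfd1l at -0.0054 with ERCC totals. List medians near 0, such as those of amino acid transporters, activation markers, naive and memory genes and receptor signalling genes, changed sign without TMM factors or with ERCC totals. The causes were not tested. Depth limits statements on genes under 1 CPM, such as Nqo1.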

Other observations

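Polyamine genes changed in both directions at 4 h, with 4 of 10 higher and 5 lower. Odc1, the rate-limiting enzyme of polyamine synthesis, had 2250.0, 2238 and 2221 CPM under Asn restriction, against 1365, 1309 and 1334 CPM in control, and Sat1, which starts polyamine breakdown, had 154, 149 and 152 CPM, against 78.9, 84.0 and 88.1 CPM. Spermidine synthase, Srm, fell by 0.31 on the log2 scale, a call that ended with ERCC scaling. Of 30 autophagy and lysosome genes 12 rose (40%) and 7 fell (23.33%), against 23.6% and 22% of all genes. Atg12, a ubiquitin-like protein of autophagosome formation, rose by 0.94 and the cathepsin gene Ctsb fell by 0.63. Inhibitory receptor genes rose in 7 of 13 cases and fell in 3, with Ctla4 at 0.73 and Lag3 at -0.76, while Pdcd1, encoding PD-1, did not pass (0.09, adjusted p = 0.218).

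Non-coding classes differed in their balance. Of 390 lincRNA genes tested 62 rose (15.9%) and 22 fell (5.64%), with a median log2 fold change of 0.28, and of 368 antisense genes 42 rose (11.4%) and 13 fell (3.53%), with a median of 0.12, although the strand setting of the counting is not stated. Both shares that rose are below the 23.6% of all genes. Of 114 snoRNA genes 13 rose and 12 fell (median -0.09), and of 500 processed pseudogenes 34 rose and 30 fell. Protein-coding genes were balanced, with 3176 higher and 3114 lower of 11944. Malat1 rose by 0.30 and Neat1 by 0.52, neither past the threshold with ERCC scaling, and Mir155hg, the host of miR-155, rose by 0.66. The median transcript length was 3569.5 bases for genes that rose, 3105 bases for genes that fell and 2969 bases for all genes tested.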
